A study of Homo sapiens with 6 samples.

Results

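Interferon-stimulated genes are the antiviral transcripts that cells switch on after interferon has bound its receptors. The set described here holds 39 genes, taken by symbol from a list of that name, and their response to interferon was not tested. That list was chosen with earlier results of these data known. All 39 had a row among the 28265 genes of the count table. Of these, 30 passed the filter on low counts and were tested, among 14533 genes tested in all, and 9 did not pass it. They were measured by sequencing of polyadenylated RNA from Huh7, an established cell line grown from a human hepatocellular carcinoma. Both groups carried a lentiviral vector for 48 h: 3 libraries, called LHX2, came from cells given a vector that expresses LHX2, a LIM-homeodomain transcription factor, and 3 libraries, called CTRL, from cells given a control vector. Untransduced cells and cells treated with interferon were not analysed here, so the values compare the vectors with each other and do not show what transduction itself did. The labels describe the CTRL cells as parental. Whether the replicates are cultures grown apart is not in the labels, and the p-values therefore rest on the spread of these libraries alone, and that spread may be technical.

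As background, type I interferon binds the receptor chains IFNAR1 and IFNAR2, whose kinases JAK1 and TYK2 phosphorylate STAT proteins such as STAT2. STAT2 and IRF9 take part in the complex ISGF3, which binds the interferon-stimulated response element (ISRE) in promoters of these genes. RNA sensors such as RIG-I and MDA5 lie upstream of interferon production, and are themselves induced by it. Many of the genes also keep a basal level without interferon, and Huh7 cells are widely used to study the interferon response to hepatitis C virus.

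The libraries held 30029313 to 39653681 counts. LHX2 had 1, 2 and 1 counts in the CTRL libraries and 2535, 2427 and 3126 in the LHX2 libraries. All 17 listed hepatocyte markers were tested, of which 4 rose and 5 fell, where 16.6% of all genes tested rose and 15.8% fell. Levels are in CPM, a gene's counts as a share of the library total scaled by its TMM factor, times 1e6. The summed level of the hepatocyte markers was 50191 to 51579 CPM in CTRL and 46702 to 51109 CPM in LHX2 libraries. Of 10 leukocyte markers CD3E, CSF1R and LAPTM5 had 0 counts in every library and PTPRC at most 3. Their sum was 472 to 501 CPM in CTRL and 612 to 679 CPM in LHX2 libraries, nearly all of it lysozyme (LYZ, 472 and 635 CPM on average). LYZ and CD68 rose and FCER1G fell. FCER1G did not pass without CTRL replicate 1 (adjusted p = 0.067) or 2 (0.088) or LHX2 replicate 3 (0.070), and the markers' part in the results was not tested. Of 10 fibroblast and endothelial markers CDH5 and KDR had 0 counts, COL1A2 and LUM rose and PECAM1 fell. PECAM1 did not pass with DESeq2 (adjusted p = 0.062) or in edgeR with replicate number as a block (0.060). It did not pass without CTRL replicate 1 (0.066) or 3 (0.083) or LHX2 replicate 3 (0.088). The sum of these markers was 21.4 to 23.8 CPM in CTRL and 49.3 to 55.8 CPM in LHX2 libraries. Most of that difference was COL1A2, at 9.26 and 36.8 CPM on average. Under the filter, COL3A1 had 9, 7 and 8 counts in CTRL and 2, 2 and 4 in LHX2 libraries. PDGFRB had 6, 10 and 6 against 1, 1 and 2, and COL1A1 9, 8 and 4 against 8, 10 and 10. The part of these markers in the results was likewise not tested. In bulk RNA, a change in the share of cells that express a gene and a change in its RNA per cell cannot be told apart.

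The promoters of the IFIT genes are shown first. IFIT1 and IFIT3 are the genes that changed with LHX2 and hold the whole ISRE letters in the 250 bases searched. The letters searched were GAAA, any 2 bases and GAAA again, on both strands (TTTC, any 2 bases and TTTC when read on the other strand), in the 250 bases before each RefSeq gene start on GRCh38.p14. RefSeq promoter entries were found for 30 of the 39 genes. Entries for IFIT2, OAS2, OASL, DHX58, IRF3, IRF7, USP18, IFITM2 and MX2 were not used here. Capitals mark the ISRE letters, which lie 116 and 103 bases before the start in IFIT1, 156 and 122 bases before the first start of IFIT3, and 94 and 51 bases before its other start.
IFIT1, chr10:89392373-89392622, plus strand: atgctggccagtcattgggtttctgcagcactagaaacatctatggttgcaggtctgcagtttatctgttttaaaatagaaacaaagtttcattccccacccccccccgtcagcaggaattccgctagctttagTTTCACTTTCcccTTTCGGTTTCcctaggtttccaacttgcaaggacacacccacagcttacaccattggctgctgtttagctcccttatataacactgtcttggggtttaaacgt
IFIT3, chr10:89327747-89327996, plus strand: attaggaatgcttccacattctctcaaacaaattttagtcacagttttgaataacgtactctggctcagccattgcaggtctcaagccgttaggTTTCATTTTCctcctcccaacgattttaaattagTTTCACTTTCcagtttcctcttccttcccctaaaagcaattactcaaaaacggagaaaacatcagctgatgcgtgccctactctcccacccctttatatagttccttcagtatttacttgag
IFIT3, chr10:89332279-89332528, plus strand: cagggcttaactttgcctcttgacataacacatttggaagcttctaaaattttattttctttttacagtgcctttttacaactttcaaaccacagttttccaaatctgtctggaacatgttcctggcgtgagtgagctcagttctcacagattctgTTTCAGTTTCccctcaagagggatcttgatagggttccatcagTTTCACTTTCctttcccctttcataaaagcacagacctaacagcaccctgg

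Short stretches around the same letters in 7 further members, none of which passed the test of LHX2 against CTRL, are set beside them to show the same letters in members that did not pass. They were chosen after their values were seen. IFIT5 lies in the same cluster on chromosome 10, and ISG15, IFI6, IFITM3, PARP14, PARP9 and SAMD9 lie elsewhere. The letters of PARP9 also run across the start of its neighbour DTX3L, a member that did pass, as lower.
ISG15, chr1:1013380-1013409, plus strand: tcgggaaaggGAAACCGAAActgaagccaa
IFI6, chr1:27672266-27672295, minus strand: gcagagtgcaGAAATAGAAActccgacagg
IFIT5, chr10:89414539-89414567, plus strand: ttacgtttagTTTCGATTTCttaagtttc
IFITM3, chr11:320876-320905, minus strand: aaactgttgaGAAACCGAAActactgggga
PARP14, chr3:122680800-122680829, plus strand: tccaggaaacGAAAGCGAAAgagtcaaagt
PARP9, chr3:122564322-122564351, minus strand: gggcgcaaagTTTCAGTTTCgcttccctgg
SAMD9, chr7:93118096-93118125, minus strand: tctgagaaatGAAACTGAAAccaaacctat

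Of the 38 promoter entries of members, 23 held the ISRE letters (60.5%), against 1061 of 35116 promoters of all genes (3.02%). By gene these were 20 of 30 members. The palindrome TTCNNNGAA, the letters of the gamma-activated site, stood in 10 of 38 member entries and in 6.57% of all promoters. A match of letters is a description of the sequence, not a measured binding site.

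Over the tested members, changes went in both directions. Of the 30 genes tested, 5 rose (IFIT1, IFIT3, IRF9, DDX58 and STAT2), 3 fell (OAS1, IFI35 and DTX3L) and 22 did not pass an adjusted p of 0.05 (edgeR quasi-likelihood test, Benjamini-Hochberg over all genes tested). The share that rose, 16.7%, stood beside 16.6% of all genes tested, and the share that fell, 10.0%, beside 15.8%. Called in either direction were 26.7% of the members and 32.5% of all genes. The CPM values of the groups did not overlap for 10 of the 30 members (33.3%), against 44.9% of all genes tested. The members' median log2 fold change was -0.05, beside 0.01 over all genes tested, and their median absolute log2 fold change was 0.20 beside 0.16. Of the 30 tested members only OAS1 moved by at least 1.5-fold (3.33%, beside 8.74% of all genes tested) and 0 moved by 2-fold. The 9 members under the filter, BST2 and IFI27 among them, are not in these counts. The members were less abundant than the genes tested as a whole, with a median level of 4.59 CPM against 20.7 CPM. Single libraries moved the count: 3 members were higher without CTRL replicate 2 or LHX2 replicate 1, and 1 was lower without CTRL replicate 3 or LHX2 replicate 3.

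Of the 20 members whose promoter window held the ISRE letters, 15 were tested: 2 rose, 0 fell at an edgeR adjusted p under 0.05 and 13 did not pass, with a median log2 fold change of 0.01. PARP9 and SAMD9 were lower at an unadjusted p under 0.05, and DESeq2 and limma-voom also called 0 of the 15 lower. Other alternatives did call some of them lower: PARP9 and SAMD9 with a correction for transcript length and GC content (adjusted p = 0.0093 and 0.019) and without CTRL replicate 1 (0.018 and 0.044), SAMD9 without the filter on low counts (0.027) or LHX2 replicate 2 (0.030), and OAS3 without LHX2 replicate 1 (0.025). Among the 10 tested members whose window lacked the letters 3 rose (DDX58, STAT2 and IRF9) and 3 fell (OAS1, DTX3L and IFI35). The windows of OAS1, DDX58 and IFI35 do hold GAAA, 1 base and GAAA again, a spacing that was not searched. The window of DTX3L ends inside the ISRE letters counted for PARP9, which run on across the start of DTX3L. The split of members by these letters therefore depends on the spacing used and on where each window ends. A window without them may still hold an ISRE. Of the 5 tested members whose promoters were not analysed here, 0 passed the edgeR test, nor DESeq2 or limma-voom, and 1 (MX2) had an unadjusted p under 0.05.

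**Figure D1:**
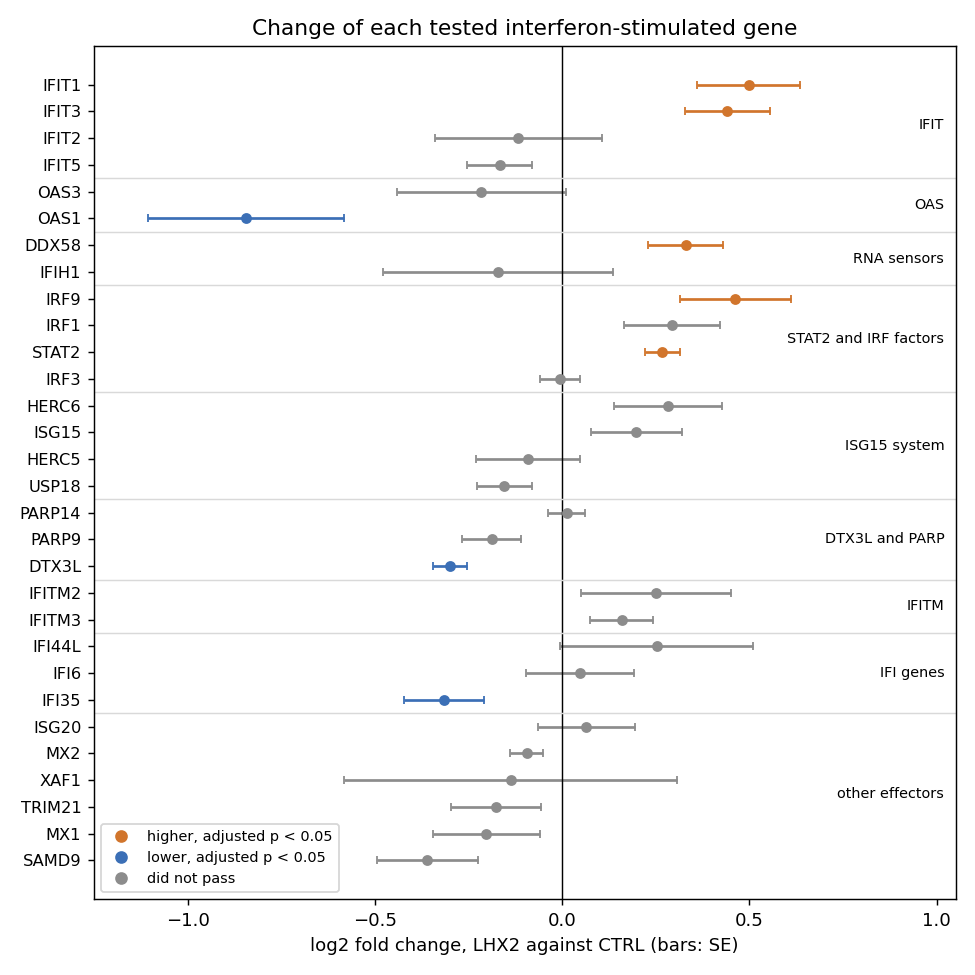
Log2 fold change (x axis, LHX2 against CTRL, bars are SE) of the 30 tested members, grouped by role on the y axis. Orange (higher) and blue (lower) points passed an adjusted p of 0.05; the 5 higher and 3 lower genes lie between -0.84 and 0.50.

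The summed level of all 39 genes was nearly the same in every library, at 394, 392 and 401 CPM in CTRL replicates 1 to 3 and 392, 397 and 386 CPM in LHX2 replicates 1 to 3, and these ranges overlap. That sum was carried by few genes. MX2, IRF3, STAT2, PARP14 and DTX3L together held 64.8% to 66.6% of it in each library. At the other end 11 of the 39 genes had a mean under 1 CPM in both groups. The plot of levels by library shows this range, from XAF1 near the filter to MX2.

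**Figure D2:**
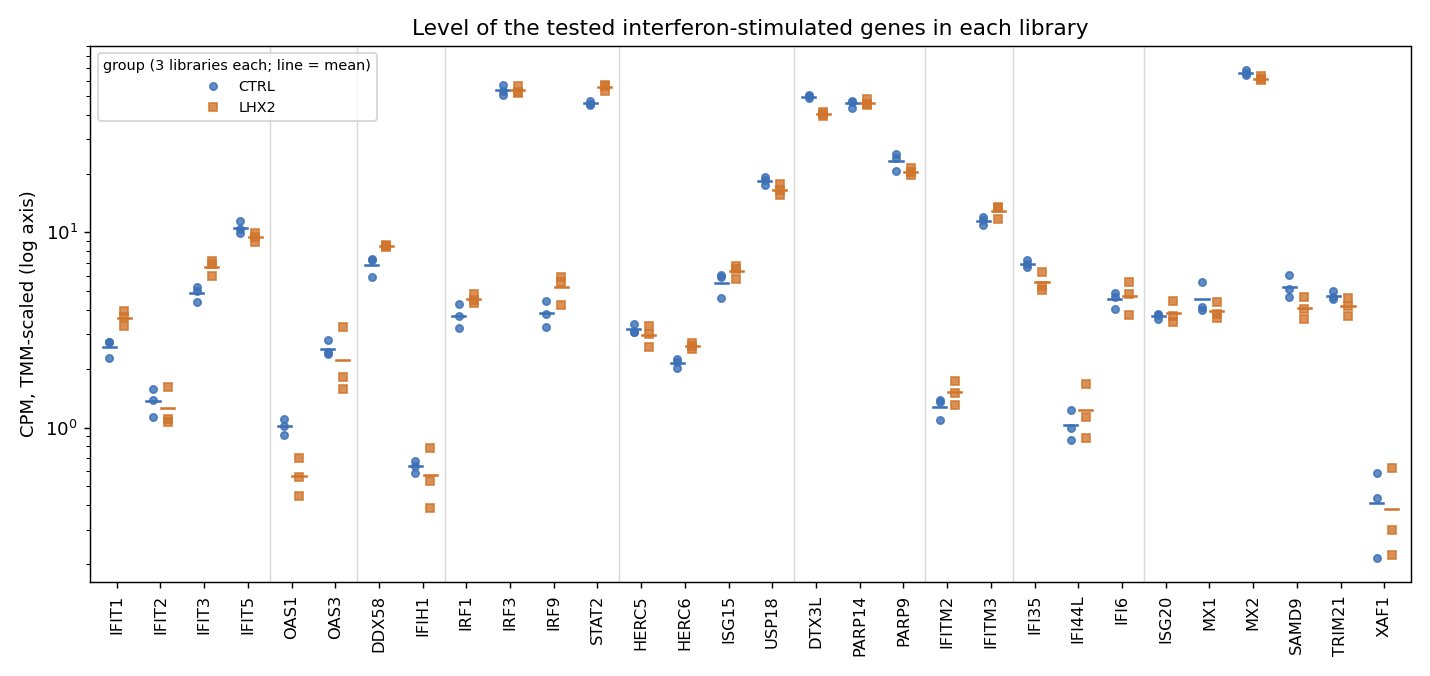
CPM (y axis, log scale) of each of the 30 tested members in each library, CTRL as circles and LHX2 as squares, with group means as lines; grey lines part the role groups. MX2 lies highest at 65.7 CPM in CTRL, and XAF1 lowest at 0.411 CPM.

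Compared between genes, levels need the transcript length. Per kilobase of the longest annotated transcript, the CTRL level was 18.7 ± 1.16 CPM per kb for IRF3, 16.2 ± 0.479 for MX2, 14.2 ± 0.683 for IFITM3 and 14.0 ± 0.301 for STAT2 (SD, n = 3). USP18 (8.65), DTX3L (8.45), ISG15 (7.0), IFI35 (5.58), PARP14 (5.44) and IFI6 (5.39) followed on the same CPM per kb scale. IFITM3 and STAT2 differed by less than their spread, as did USP18 and DTX3L. MX1, the cytoplasmic relative of MX2, had 1.32 ± 0.247 CPM per kb, far under MX2. These lengths come from GENCODE release 29, and a gene that uses a shorter transcript in Huh7 would have a higher value.

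The machinery that carries the interferon signal was tested from the receptor inward. STAT2 and IRF9, which encode parts of ISGF3, both rose, and so did IFNAR1, JAK1 and TYK2, the last 3 by smaller amounts.

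STAT2 (chromosome 12, 56341597 to 56360155, GRCh38) is the STAT that binds IRF9 in ISGF3. It stood at 45.7, 45.1 and 47.1 CPM in CTRL replicates 1 to 3 and at 56.1, 56.7 and 53.3 CPM in LHX2 replicates 1 to 3. Every LHX2 library lay above every CTRL library. The rise was 1.20-fold, or 0.27 ± 0.05 on the log2 scale (SE, edgeR adjusted p = 0.00041), and the call held under all 16 alternatives, at 0.25 to 0.30.

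IRF9 (chromosome 14, 24161053 to 24166565) gives ISGF3 its DNA contact. Every 50-base window of its longest transcript also occurs in an annotated readthrough transcript that was not analysed here, so its value is uncertain. Its level was 3.84, 3.27 and 4.44 CPM in CTRL and 5.56, 4.27 and 5.94 CPM in LHX2 replicates 1 to 3, so LHX2 replicate 2 lay below CTRL replicate 3. The fitted rise was 1.38-fold (log2 0.46 ± 0.15, SE, adjusted p = 0.027). That call was lost without CTRL replicate 1 (0.46, adjusted p = 0.071) or 2 (0.35, 0.14) and without LHX2 replicate 1 (0.42, 0.083) or 3 (0.36, 0.099).

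Of the receptor genes, IFNAR1 had 79.1, 81.0 and 89.1 CPM in CTRL and 99.4, 94.3 and 87.9 CPM in LHX2 replicates 1 to 3. The groups overlapped, and IFNAR1 rose 1.13-fold (edgeR adjusted p = 0.022). IFNAR2 went from 44.7 ± 0.0498 to 48.3 ± 0.534 CPM with no overlap, but did not pass (adjusted p = 0.064), though it did with library totals alone (adjusted p = 0.025) or with genes kept at 1 CPM in at least 3 libraries (adjusted p = 0.048). JAK1 rose 1.09-fold (adjusted p = 0.030) and TYK2 1.12-fold (adjusted p = 0.037). These 3 calls rested on single libraries. With replicate number as a block they did not pass either (edgeR adjusted p = 0.067 for IFNAR1, 0.068 for JAK1 and 0.091 for TYK2). IFNAR1 did not pass without CTRL replicate 1 (log2 0.14) or 2 (0.16) or LHX2 replicate 1 (0.13) or 2 (0.17). JAK1 passed only when LHX2 replicate 3 was the library left out, with 0.095 to 0.125 in the other cases, and TYK2 did not pass without CTRL replicate 2 (0.15) or 3 (0.13) or LHX2 replicate 3 (0.11). TYK2 also moved to 0.07 (adjusted p = 0.23) and JAK1 to 0.09 (adjusted p = 0.062) once the dependence of counts on transcript length and GC content had been taken out, and JAK1 did not pass with DESeq2 (0.12, adjusted p = 0.058). The other interferon receptor chains, IFNGR1 and IFNGR2 of the type II and IFNLR1 and IL10RB of the type III receptor, did not pass, with log2 fold changes of -0.13, 0.13, 0.14 and 0.06.

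**Figure D3:**
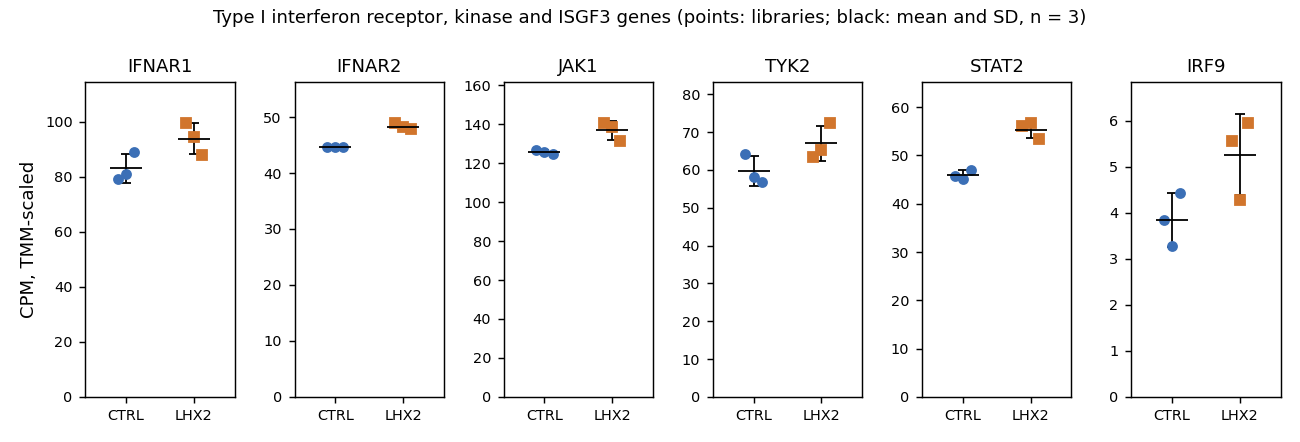
CPM (y axes, each from 0) of the type I receptor genes IFNAR1 and IFNAR2, the kinases JAK1 and TYK2, and the ISGF3 genes STAT2 and IRF9, with 1 point per library and the mean with its SD in black (n = 3). STAT2, IFNAR2 and JAK1 show groups that do not overlap, and STAT2 goes from 46.0 CPM in CTRL to 55.4 CPM in LHX2.

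The interferon genes themselves were not tested. Of 22 listed type I, II and III interferon genes 20 had 0 counts in all 6 libraries, IFNB1 and IFNG among them. IFNA5 had 0, 0 and 1 counts in CTRL and 2, 0 and 2 in LHX2 replicates 1 to 3, and IFNL4 had 1 count in CTRL replicate 1. A count of 0 allows up to 3 counts, which is 0.0766 to 0.0999 CPM in these libraries, for counting error only, so interferon transcripts below that level were not detectable at this depth.

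The other transcription factors of the set did not pass. IRF1, an interferon-gamma-induced factor, had 3.72, 3.24 and 4.28 CPM in CTRL and 4.53, 4.33 and 4.83 CPM in LHX2 libraries, with no overlap and a log2 fold change of 0.29 ± 0.13 (SE, edgeR adjusted p = 0.098). It passed without CTRL replicate 3 (0.40, adjusted p = 0.045). Its exons overlap 1716 bases of C5orf56 on the opposite strand, which had at most 7 counts in any library. IRF3, which is activated by phosphorylation downstream of the RNA sensors, had 50.5 to 57.2 CPM in CTRL and 52.0 to 56.2 CPM in LHX2 libraries, with a log2 fold change of -0.0049 ± 0.05. Its exons overlap 734 bases of BCL2L12, and the strand setting of the counting is not given in the sources used here. IRF7, the factor that amplifies interferon production, had 1 count in all libraries together.

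Among the RNA sensors DDX58, the gene of RIG-I (chromosome 9, 32455705 to 32526324), rose. It had 7.22, 5.92 and 7.27 CPM in CTRL and 8.66, 8.53 and 8.38 CPM in LHX2 replicates 1 to 3. The LHX2 libraries lay close together and all above the CTRL libraries. The rise was 1.26-fold (log2 0.33 ± 0.10, SE, edgeR adjusted p = 0.021) and was lost without CTRL replicate 2 (0.23, adjusted p = 0.13), the lowest control, or LHX2 replicate 1 (0.31, adjusted p = 0.058). IFIH1, the gene of MDA5, was low, at 0.585 to 0.676 CPM in CTRL and 0.389 to 0.788 CPM in LHX2 libraries, and did not pass (-0.17 ± 0.31). DHX58, which encodes the regulator LGP2, had at most 5 counts in a library and was not tested.

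The IFIT genes lie in a cluster on chromosome 10 and encode proteins that bind foreign RNA and block its translation. They did not move as a block: 2 of 4 rose and 2 did not pass.

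IFIT1 (89392546 to 89406486) had 2.74, 2.73 and 2.28 CPM in CTRL and 3.33, 3.94 and 3.69 CPM in LHX2 replicates 1 to 3. All LHX2 libraries lay above all CTRL libraries, and the rise of 1.41-fold was the largest among the members tested (log2 0.50 ± 0.14, SE, edgeR adjusted p = 0.012). Without CTRL replicate 3, the lowest control, it did not pass (0.42, adjusted p = 0.053).

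IFIT3 (89327894 to 89340971) had 4.39, 5.23 and 4.99 CPM in CTRL and 7.12, 6.86 and 5.97 CPM in LHX2 replicates 1 to 3, again with no overlap. It rose 1.36-fold (log2 0.44 ± 0.11, SE, adjusted p = 0.0074) and kept its call under all 16 alternatives, at 0.37 to 0.52. IFIT2 had 1.14 to 1.57 CPM in CTRL and 1.07 to 1.61 CPM in LHX2 libraries (log2 -0.12 ± 0.22). IFIT5 had 9.96 to 11.4 CPM in CTRL and 8.91 to 9.99 CPM in LHX2 libraries (log2 -0.17 ± 0.09, adjusted p = 0.17). Of 50-base windows in the longest transcript, 0.602% to 2.58% in IFIT1, IFIT2 and IFIT3 and 0% in IFIT5 also occur in another gene with a row in the table, so few reads could be shared with those genes. For IFIT2 the share over all annotated genes was 8.40%, most often in a transcript that was not analysed here, and 65 of its exon bases overlap LIPA on the opposite strand, so its value is uncertain.

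The oligoadenylate synthetases make the messenger that activates the RNA-degrading enzyme RNase L. OAS1 (chromosome 12, 112906777 to 112933222) had 1.01, 0.919 and 1.11 CPM in CTRL and 0.699, 0.558 and 0.444 CPM in LHX2 replicates 1 to 3. Each LHX2 library lay below each CTRL library, although with only 16 to 36 counts per library. OAS1 fell 1.79-fold (log2 -0.84 ± 0.26, SE, edgeR adjusted p = 0.022). The direction held in every alternative that tested it. The call was lost with DESeq2 (adjusted p = 0.069) and in edgeR with replicate number as a block (-0.85, adjusted p = 0.051). It was also lost without CTRL replicate 1 (-0.84, adjusted p = 0.062) or 3 (-0.78, 0.074) and without LHX2 replicate 2 (-0.84, 0.054) or 3 (-0.68, 0.093). OAS3, its neighbour on the chromosome, had 2.43, 2.81 and 2.37 CPM in CTRL and 3.26, 1.81 and 1.58 CPM in LHX2 replicates 1 to 3. LHX2 replicate 1 lay above all controls and the other LHX2 libraries below them, and OAS3 did not pass (-0.22 ± 0.23) unless LHX2 replicate 1 was left out (-0.60, adjusted p = 0.025). OAS2 and OASL had at most 3 counts in a library.

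DTX3L and PARP9 encode a ubiquitin ligase and an ADP-ribosyltransferase that work as a pair, and PARP14 is a related ADP-ribosyltransferase. DTX3L (chromosome 3, 122564238 to 122575203) had 50.4, 48.7 and 49.8 CPM in CTRL and 40.3, 41.3 and 39.3 CPM in LHX2 replicates 1 to 3. The groups lay well apart, and DTX3L fell 1.23-fold with the lowest adjusted p of the members (log2 -0.30 ± 0.05, SE, edgeR adjusted p = 0.00016). The call held under all 16 alternatives, at -0.35 to -0.27. PARP9 starts beside it on the opposite strand, and some of their exon bases overlap. Their promoter windows overlap too (chr3:122564088-122564337 for DTX3L and chr3:122564301-122564550 for PARP9), in a stretch with part of the ISRE letters of PARP9. PARP9 had 20.7, 24.1 and 25.2 CPM in CTRL and 19.7, 21.4 and 20.4 CPM in LHX2 replicates 1 to 3. With LHX2 replicate 2 above CTRL replicate 1 the groups overlapped, and PARP9 did not pass (-0.19 ± 0.08, adjusted p = 0.081), although it did without CTRL replicate 1 (-0.27, adjusted p = 0.018) or with the length and GC correction (-0.25, adjusted p = 0.0093). PARP14 stood at 43.7 to 47.2 CPM in CTRL and 45.2 to 48.3 CPM in LHX2 libraries (log2 0.01 ± 0.05).

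ISG15 is a ubiquitin-like protein, HERC5 the ligase that attaches it and USP18 the protease that removes it and also restrains the interferon receptor. None of the 4 members of this group, HERC6 included, passed the edgeR test, DESeq2 or limma-voom, and 0 had an unadjusted p under 0.05. ISG15 had 4.59 to 6.05 CPM in CTRL and 5.76 to 6.73 CPM in LHX2 libraries (log2 0.20 ± 0.12). USP18 had 17.6 to 19.2 CPM in CTRL and 15.6 to 17.7 CPM in LHX2 libraries (log2 -0.15 ± 0.07, adjusted p = 0.13). Its value is uncertain, because 23.4% of its 50-base windows also occur in other transcripts, most often of USP41, which was not analysed here. HERC6 had 2.03 to 2.25 CPM in CTRL and 2.53 to 2.70 CPM in LHX2 libraries, without overlap (log2 0.28 ± 0.15, adjusted p = 0.16), and HERC5 differed by -0.09 ± 0.14.

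The IFITM proteins hold viruses back at endosomal and surface membranes. IFITM3 had 10.9, 11.5 and 12.04 CPM in CTRL and 13.4, 13.5 and 11.8 CPM in LHX2 replicates 1 to 3, and did not pass (log2 0.16 ± 0.08, edgeR adjusted p = 0.17). IFITM2 had 1.10 to 1.38 CPM in CTRL and 1.30 to 1.74 CPM in LHX2 libraries (log2 0.25 ± 0.20). IFITM1 had 0 counts in all 6 libraries. The 3 genes are close copies: 42.3%, 10.4% and 17.9% of the 50-base windows of IFITM1, IFITM2 and IFITM3 also occur in another gene with a row, so the split of reads between them is uncertain.

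IFI35, a leucine-zipper protein that binds NMI (chromosome 17, 43006725 to 43014456), had 6.92, 6.66 and 7.21 CPM in CTRL and 6.29, 5.09 and 5.33 CPM in LHX2 replicates 1 to 3. The groups did not overlap, and IFI35 fell 1.24-fold (log2 -0.32 ± 0.11, SE, edgeR adjusted p = 0.035). This was the least stable of the 8 calls: leaving out any library but LHX2 replicate 1 ended it (-0.35 to -0.26). It was also lost with DESeq2 (-0.32, adjusted p = 0.064) and in edgeR with replicate number as a block (-0.32, adjusted p = 0.061). Library totals alone (-0.29, adjusted p = 0.053) and the length and GC correction (-0.28, adjusted p = 0.055) ended it too. IFI6, a mitochondrial antiapoptotic protein, had 4.07 to 4.90 CPM in CTRL and 3.77 to 5.59 CPM in LHX2 libraries (log2 0.05 ± 0.14). IFI44L had 0.862 to 1.23 CPM in CTRL and 0.886 to 1.66 CPM in LHX2 libraries (log2 0.25 ± 0.26).

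Of the remaining antiviral effectors 6 were tested and 0 passed the edgeR test, as with DESeq2 and limma-voom, and 2 (MX2 and SAMD9) had an unadjusted p under 0.05. MX2, a dynamin-like GTPase that blocks viruses at the nuclear pore, had 65.5, 63.9 and 67.8 CPM in CTRL and 60.5, 60.9 and 63.2 CPM in LHX2 replicates 1 to 3. The groups did not overlap, and the log2 fold change of -0.09 ± 0.04 did not pass (adjusted p = 0.11). MX1 had 4.00 to 5.56 CPM in CTRL and 3.64 to 4.39 CPM in LHX2 libraries (log2 -0.20 ± 0.14). SAMD9, a translation-blocking antiviral factor, had 4.64, 5.104 and 6.04 CPM in CTRL and 4.06, 4.69 and 3.58 CPM in LHX2 replicates 1 to 3. It lay just outside the threshold (log2 -0.36 ± 0.14, adjusted p = 0.056) and passed without CTRL replicate 1 (-0.44, adjusted p = 0.044), without LHX2 replicate 2 (-0.46, 0.030), without the filter on low counts (-0.36, 0.027) and with the length and GC correction (-0.40, 0.019). TRIM21, the cytosolic antibody receptor (-0.18 ± 0.12), the exonuclease ISG20 (0.06 ± 0.13) and the apoptosis-linked XAF1 (-0.14 ± 0.45) did not pass.

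Of the 9 members under the filter, BST2 and IFI27 had more counts in the LHX2 libraries. BST2, the gene of tetherin, which holds budding virus at the cell surface, had 0, 0 and 1 counts in CTRL and 3, 4 and 7 in LHX2 replicates 1 to 3. The ratio of LHX2 to CTRL was 15.4. Its 95% interval, exact and binomial, ran from 2.35 to 652 and holds for counting error alone. Without the filter, edgeR gave BST2 an adjusted p of 0.024. IFI27 had 5, 1 and 7 counts in CTRL and 8, 8 and 14 in LHX2 libraries, a ratio of 2.54 (1.29 to 5.31), but edgeR without the filter gave an adjusted p of 0.11. OAS2 (3 and 8 counts in CTRL and LHX2), DHX58 (4 and 9), RSAD2, the gene of viperin (5 and 4), OASL (3 and 3), IFI44 (1 and 1), IRF7 (0 and 1) and IFITM1 (0 and 0) were near or at 0 over all libraries of a group. Between 0 and 5 counts in a library, changes of these genes were not detectable at this depth.

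Further interferon-stimulated genes outside the 39 came from a list of 59. Of 49 tested 6 rose, 9 fell and 34 did not pass the edgeR test, where 16.6% of all genes tested rose and 15.8% fell, and their median log2 fold change was 0.04. TRANK1 rose from 2.04 ± 0.0933 to 4.07 ± 0.539 CPM (SD, n = 3). APOL1, an apolipoprotein of the trypanolytic factor, fell from 2.19 ± 0.118 to 1.44 ± 0.197 CPM, but did not pass without CTRL replicate 2 (log2 -0.58, adjusted p = 0.062) or LHX2 replicate 3 (-0.50, adjusted p = 0.063). TRIM14, a mitochondrial adaptor of RIG-I signalling, fell 1.41-fold to 22.4 ± 0.462 CPM, and PNPT1, a mitochondrial RNA-degrading enzyme, 1.32-fold to 142 ± 7.75 CPM.

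In the JAK-STAT pathway and its inhibitors 6 of 19 rose, 2 fell and 11 did not pass (median log2 fold change 0.08). Of all genes tested 16.6% rose and 15.8% fell. The JAK-STAT list shares ISG15 and USP18 with the members. SOCS3, a feedback inhibitor of cytokine receptors, had 0.584 ± 0.142 CPM in CTRL and 1.10 ± 0.160 CPM in LHX2 libraries (SD, n = 3). It rose with an edgeR adjusted p of 0.015, but not without CTRL replicate 1 (log2 0.89) or 2 (0.76) or LHX2 replicate 1 (0.83). JAK2 rose 1.36-fold, lost without LHX2 replicate 2 (log2 0.32, adjusted p = 0.064), STAT3 rose 1.19-fold, and PIAS2, a SUMO ligase that restrains STATs, fell 1.21-fold. In nucleic acid sensing 3 of 21 rose, 4 fell and 14 did not pass (median -0.01), beside the same shares of all genes tested. NLRX1 (1.49-fold), a mitochondrial regulator of RNA sensing, and SAMHD1 (1.27-fold), a dNTP hydrolase, rose. CGAS, the cytosolic DNA sensor, fell 1.33-fold, from 11.4 ± 0.436 to 8.59 ± 0.425 CPM, and IRF2, a repressor that competes with IRF1, fell 1.24-fold. The strip plot of these lists shows each of them on both sides of 0.

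**Figure D4:**
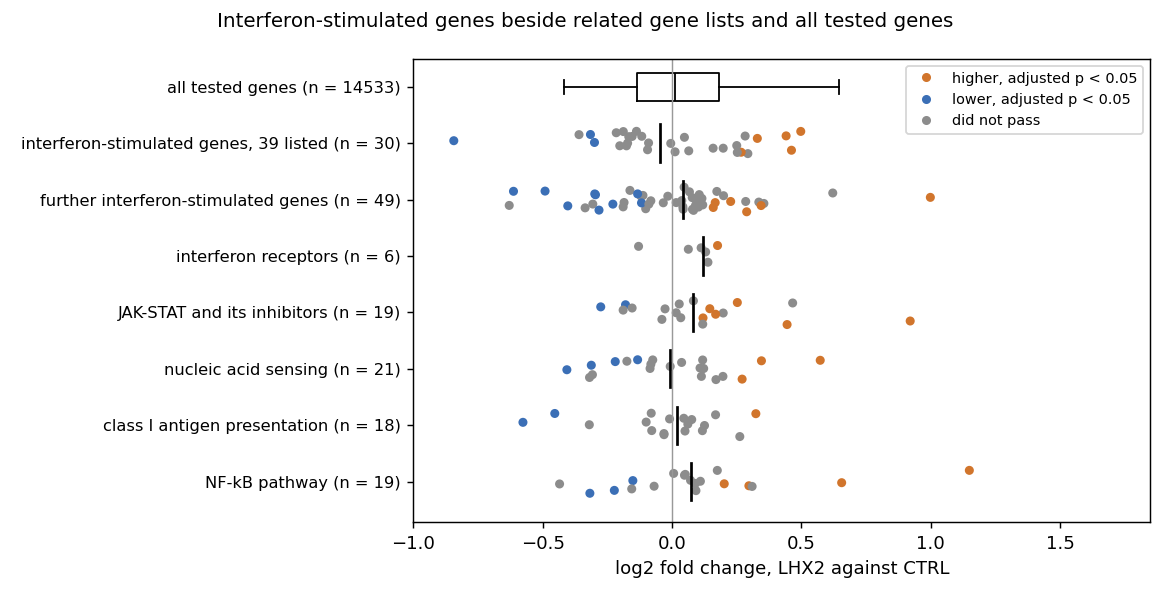
Log2 fold changes (x axis, LHX2 against CTRL) of the tested members and of related lists, 1 point per gene with the list's median as a black line, beside a box for all 14533 genes tested (quartiles, whiskers from the 5th to the 95th percentile). The members' median is -0.05, and coloured points passed an adjusted p of 0.05.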

How the data were processed

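RNA of Huh7 cells, 3 CTRL and 3 LHX2 libraries made with a stranded mRNA kit per the labels' protocols, was sequenced. The submitters' processing notes name featureCounts 2.0.0, TopHat2 2.1.1, SAMtools 1.9, Bowtie2 2.3.5.1, FastQC, bcl2fastq 2.20 and the build GRCh38/hg38, with no roles or order. The strand setting and annotation of the counting were not stated there. Values deposited by the authors are raw read counts per gene. The column of CTRL replicate 1 is written in another form than the others and was matched by its ending number.

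Genes were kept by filterByExpr of edgeR (count minimum 10, total minimum 15, proportion 0.7), scaled with TMM and compared with the edgeR quasi-likelihood test, group as the single term, with Benjamini-Hochberg adjustment over all genes tested. SEs were derived from the F statistic. The procedure was first tested on simulated counts with known changes. The precision of low genes is set by 30029313 to 39653681 counts per library. Exact binomial intervals (95%) and the limit of 3 counts cover counting error only, since the labels name no molecular identifiers.

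Positions and transcript lengths came from GENCODE release 29, and promoters from RefSeq (GRCh38.p14). Alternatives tried were upper-quartile and RLE factors, totals alone, no filter, 1 CPM in 3 libraries, a replicate block, DESeq2, limma-voom, LHX2 left out of the totals, each library left out, and removal of a trend with length and GC content (loess, span 0.3). The 39 members, the lists and the alternatives were chosen with earlier results of these data known. Named were all members, up to 4 genes of each other list with the largest changes among those past the threshold, and JAK1, TYK2, IFNAR1, IFNAR2, IFNB1 and LHX2. IFNG, IFNGR1, IFNGR2, IFNLR1, IL10RB, IFNA5, IFNL4, CD3E, CSF1R, LAPTM5, PTPRC, CDH5, KDR, COL1A1, COL3A1, PDGFRB, BCL2L12, C5orf56 and USP41 were named after their values were seen, as were the 7 short promoter stretches. Some single genes of the lists are not reported here. Versions were edgeR 4.0.16, DESeq2 1.42.0 and limma 3.58.1 in R 4.3.3, and matplotlib 3.10.9 and pandas 2.3.3 in Python 3.11.15.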

Additional observations from a re-analysis of the deposited data

How the results depend on the processing

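The count of all genes called, 4716, ran from 3768 to 5117 under the 10 alternatives that kept every library and from 3549 to 4567 when 1 library was left out. Of the 8 members called, 3 (STAT2, DTX3L and IFIT3) kept their call under all 16 alternatives, and of the 22 not called 4 (IRF1, OAS3, PARP9 and SAMD9) passed under some. The members higher were 3 to 5 and those lower 1 to 4 when 1 library was left out. Higher members were 5 under the alternatives that kept every library except no filter on low counts, which gave 6 higher and 4 lower, BST2 included. The members lower were 1 with DESeq2. Same-numbered libraries did not deviate together (correlations of -0.06, -0.07 and -0.19 for numbers 1 to 3), so the numbers were not taken as pairs; with the replicate block 5 members were higher and 1 was lower, and 3768 genes were called. Signs changed for 7 members that had not passed. With 1 library left out the log2 fold change ran from -0.046 to 0.042 for IRF3, -0.023 to 0.032 for PARP14, -0.094 to 0.19 for IFI6, -0.67 to 0.17 for XAF1, -0.017 to 0.43 for IFI44L, -0.47 to 0.060 for IFIH1 and -0.056 to 0.13 for ISG20. IRF3 was 0.023 with library totals alone and PARP14 -0.075 with the length and GC correction; the cause was not tested. Depth limits the 9 members under the filter and the interferon genes.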

Other observations

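Genes next to the interferon response also moved in both directions. Of 18 tested genes of class I antigen presentation 1 rose and 2 fell in the edgeR test, with a median log2 fold change of 0.02. The shares of all genes tested were 16.6% higher and 15.8% lower. TAP2, a subunit of the peptide transporter, had 23.7, 21.0 and 20.1 CPM in CTRL and 13.7, 14.4 and 15.2 CPM in LHX2 replicates 1 to 3, and fell 1.49-fold (log2 -0.58 ± 0.08, SE, adjusted p = 6.0e-05). PSMB10, an immunoproteasome subunit, fell 1.37-fold to 7.02 ± 0.0991 CPM.

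Of 19 genes of the NF-kB pathway 4 rose, 3 fell and 12 did not pass (median 0.07), where 16.6% of all genes tested rose and 15.8% fell. BIRC3, an inhibitor of apoptosis, had 14, 18 and 26 counts in CTRL and 40, 35 and 45 in LHX2 replicates 1 to 3, and rose 2.22-fold. TNFAIP2 rose 1.58-fold, from 13.3 ± 1.96 to 20.8 ± 1.03 CPM (SD, n = 3), REL, a subunit of NF-kB, rose 1.23-fold and NFKBIB, an inhibitor of NF-kB, fell 1.25-fold, lost without CTRL replicate 2 (log2 -0.24, edgeR adjusted p = 0.070).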
